A study of Mus musculus with 6 samples.

Results

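The genes described here are the machinery of the endoplasmic reticulum (ER) and of early secretory transport: chaperones, unfolded protein response sensors, subunits of the translocation channel and of signal peptidase, degradation factors, and carriers between the ER and the Golgi. They were taken by name from a list of 41 symbols. The list was drawn up with earlier results of these data known, so counts over it are not independent evidence. The rule itself uses measured intensity only to choose a probe. A gene was measured when at least 1 probe was annotated to its symbol alone, and the brightest such probe represented it. This held for 39 of the 41 genes, out of 19938 genes on the array. Sec61g has only probes shared with other symbols, and Kdelr2 was not analysed here.

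The cells were pre-B cells of 4-week-old Balb/c mice that had been transformed with BCR-ABL1, an oncogenic tyrosine kinase found in a form of acute lymphoblastic leukemia. All 6 samples, controls included, carry the genotype label Blnk KO. The control group (3 samples) received pMIG, a retroviral vector with GFP as its marker, and the other group (3 samples) received Blnk (Slp65), an adaptor protein that acts below the pre-B cell receptor. Sorting for GFP took place on day 5 of transduction, and total RNA was hybridised to 1 Affymetrix array per sample. Different cultures or mice are not named in the labels for the 3 samples per group, and the p-values therefore rest on a spread between samples that may be purely technical. Because RNA was taken in bulk, fewer cells of a type and less RNA per cell cannot be told apart.

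Median array intensity lay between 67.0 and 70.0, and arrays of 1 group correlated at 0.995 or more over genes. The intensity of Blnk itself was 972, 926 and 1013 in the pMIG samples against 2714, 3342 and 3022 in the Blnk samples (log2 difference 1.64, SE 0.0914; limma adjusted p = 0.000101). The signal in the pMIG samples lay far above the array medians despite the knockout label, and whether this probe lies in the deleted part of the gene is not stated in the labels. Among 8 measured markers of the B lineage, Igll1 (surrogate light chain), Cd79a, Cd79b and Pax5 lay far above the array medians in both groups, and Dntt was dim (24.3 ± 1.15 and 24.0 ± 4.00, SD, n = 3). In that list 1 gene passed an adjusted p of 0.05 upward, Cd79a (log2 0.31; limma adjusted p = 0.0468), and 1 downward, Vpreb1, the other surrogate light chain gene (1746 ± 122 to 1090 ± 116, SD, n = 3; log2 -0.68; limma adjusted p = 0.00976). Over all genes these shares were 2.51% and 1.10%. Cd79b (log2 0.35), Igll1 (-0.19) and Ebf1 (-0.25) did not pass, though their pMIG and Blnk arrays did not overlap. Myeloid markers were low: the summed intensity of 9 was 301 to 334 with pMIG and 309 to 336 with Blnk, with 0 called by limma. Not all markers of other blood lineages were that low. Mean intensities of Cd8a (170 with pMIG and 191 with Blnk), Zap70 (167 and 164) and Cd3e (80.7 and 81.3), from the T and NK list, lay above the array medians.

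Proteins bound for the cell surface or for secretion enter the ER through the SEC61 channel, lose their signal peptide, and fold with the help of the HSP70 chaperone BiP, lectin chaperones and disulfide isomerases. Misfolded chains are sent back to the cytosol for degradation, and folded ones leave in COPII vesicles. When folding load exceeds capacity, the sensors IRE1, ATF6 and PERK start the unfolded protein response, which raises many of these genes through the transcription factors XBP1 and ATF6. In the B lineage this machinery handles the immunoglobulin heavy chain, from which BiP (binding immunoglobulin protein) takes its name, and it expands greatly in plasma cells.

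Most of these genes were slightly higher with Blnk. The log2 fold change (mean log2 intensity with Blnk minus that with pMIG) was above 0 for 32 of 39 genes, with a median of 0.20 against 0.00 over all genes, and ranged from -0.22 (Sec24d) to 0.41 (Sec11c). Only 3 of 39 passed limma's test at an adjusted p of 0.05 over all genes, all upward: Sec11c, Hsp90b1 and Edem1. That is 7.69% of the members, against 2.51% of all genes called higher, and 0 members fell, against 1.10% of all genes called lower. At an unadjusted p under 0.05, 20 members were higher (51.3%, against 8.91% of all genes) and 1 was lower (Sec24d, against 6.32% of all genes). All 3 Blnk arrays lay above all 3 pMIG arrays for 24 members (61.5%, against 11.8% of all genes), and below them for 0 (against 8.15% of all genes). Among the 11963 genes left without the dim 40%, these upward shares were 3.97% (adjusted), 12.7% (unadjusted) and 17.9% (separate groups). That set still holds many genes dimmer than most members, and shares among genes of like brightness were not computed. With quantile normalization repeated on the deposited values, 21 members had separate groups upward (53.8%, against 10.7% of all genes). The members share the same RNA and arrays, and their list was drawn up with earlier results known. These counts therefore describe the list and are neither independent trials nor independent evidence.

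The plot of cumulative distributions sets these fold changes beside those of all genes.

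**Figure D1:**
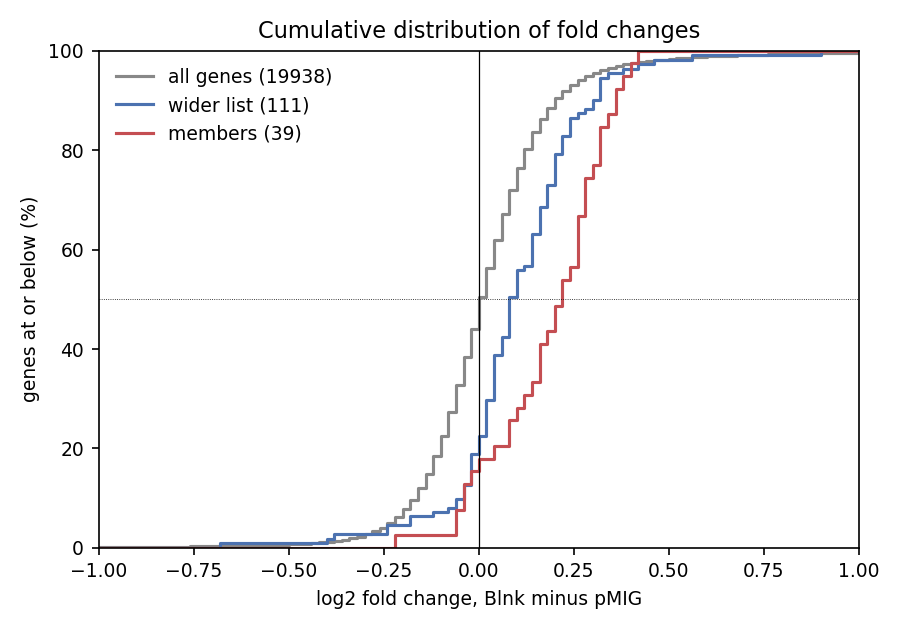
Cumulative distribution of log2 fold changes (horizontal axis, Blnk minus pMIG) as the percentage of genes at or below each value (vertical axis), for the 39 members, 111 other genes of the pathway and all 19938 genes. The members' curve crosses 50% near their median of 0.20, the wider list's near 0.08 and that of all genes at 0.

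The number of calls depended on the setting. With any 1 of the 6 arrays left out, 0 members passed by limma's adjusted p, while the number higher at an unadjusted p under 0.05 was between 16 (without Blnk 1) and 22 (without Blnk 2). With the dim genes left out before the fit, 12 of 38 members passed, all upward (31.6%, against 6.75% of all genes in that fit). With a trended, robust variance prior 16 of 39 passed, all upward (41.03%, against 5.12% of all genes). Centring the arrays on their medians left 1 (2.56%, against 2.41%), and adding replicate number to the fit left 0 (against 1.04%). The dim-gene filter, the trended prior and the replicate term leave each gene's fold change unchanged by design, and so do not test it. Quantile normalization repeated on the deposited values gave 4 (10.3%, against 2.38%), and the members' median fell from 0.20 to 0.14. Each sub-function median fell too. That of BiP, GRP94 and their partners went from 0.29 to 0.21, and that of the channel and TRAP genes from 0.11 to 0.05.

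Both sensors among the members had positive fold changes. Atf6, which travels to the Golgi under folding stress and is cut there to free a transcription factor, had intensities of 747, 773 and 775 with pMIG and 891, 963 and 916 with Blnk. The groups did not overlap, and the difference (log2 0.27, SE 0.0666) did not pass the limma test (adjusted p = 0.0802). Ern1, which encodes IRE1, the kinase and endonuclease that splices Xbp1 messenger RNA, read 154, 164 and 168 with pMIG and 163, 180 and 169 with Blnk. Its groups overlapped (log2 0.07, 95% interval -0.09 to 0.24; limma adjusted p = 0.715).

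The median of the translocation genes was below that of all members, 0.11 against 0.20. Of 6 measured channel and TRAP genes, 0 were called and 3 had separate groups, higher with Blnk (50%, against 11.8% of all genes). Of 15 other translocation genes measured in the wider pathway list, 6 had such groups (40%) and 0 were called. Sec61a1, the pore of the channel, read 1903, 1970 and 1885 with pMIG and 2061, 1947 and 2058 with Blnk. Blnk 2 lay within the pMIG range, and the 95% interval of the log2 difference ran from -0.08 to 0.23. Sec61b, a small subunit of the same channel, had separate groups with a log2 difference of 0.14, and its other 2 probes gave 0.24 and 0.21. The 4 probes shared by Sec61g, the third subunit, and 2 predicted genes gave log2 differences of 0.11 to 0.16, each with separate groups, but they cannot be assigned to Sec61g and were not counted.

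The TRAP complex, which sits beside the channel and helps some signal peptides to insert, had estimates on both sides of 0. Ssr2 had the largest difference of these 6 genes, from 1842, 1903 and 1790 with pMIG to 2329, 2090 and 2167 with Blnk. Its groups were separate (log2 0.25, SE 0.0718; limma adjusted p = 0.132). Ssr4 stood at 0.16, while Ssr1 (-0.01, just above 0 with arrays centred on their medians) and Ssr3 (-0.05) had 95% intervals of -0.18 to 0.16 and -0.21 to 0.11. Their upper ends lie below the estimate for Ssr2, whose own 95% interval was 0.08 to 0.42. These intervals overlap that of Ssr2, and differences between the TRAP genes were not tested.

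The largest rise of all members was in signal peptidase, the enzyme that removes signal peptides. Sec11c, one of its catalytic subunits, had intensities of 1598, 1726 and 1734 with pMIG and 2260, 2233 and 2237 with Blnk. The 3 Blnk arrays were nearly equal, and all lay above every pMIG array. The mean went from 1686 ± 76.3 to 2243 ± 14.6 (SD, n = 3), a rise of 33.1% (log2 0.41, SE 0.0670; limma adjusted p = 0.0158). Without any 1 array it no longer passed, with adjusted p of 0.0511 (without pMIG 1) to 0.0717 (without Blnk 3).

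The other subunits of the same enzyme were closer to 0. Spcs1 (log2 0.19) had separate groups, Spcs3 stood at 0.14, and Spcs2 read 2691, 2867 and 2753 with pMIG against 2897, 2717 and 2931 with Blnk. The Spcs2 arrays overlapped, and its 95% interval on the log2 scale ran from -0.12 to 0.20. Sec11a, the other catalytic subunit and one of the wider pathway genes, stood at 0.18 (limma adjusted p = 0.246).

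**Figure D2:**
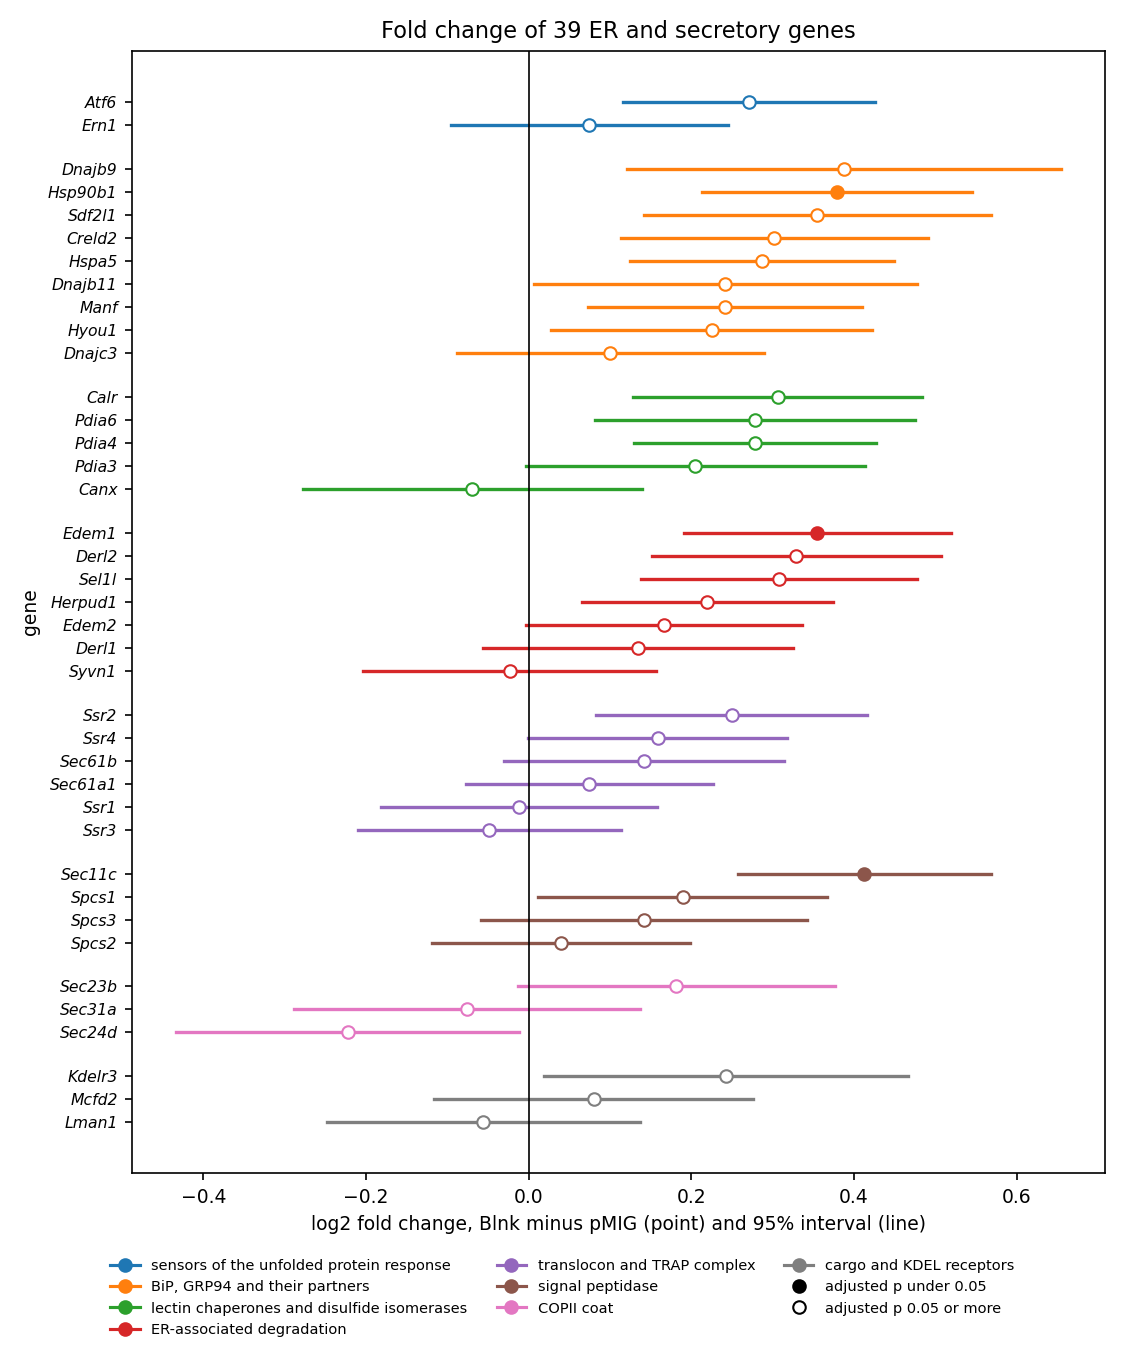
Log2 fold change, Blnk minus pMIG (horizontal axis), of each of the 39 genes (vertical axis), with 95% intervals from limma as lines and colours for 8 sub-functions. Filled points are the 3 genes with an adjusted p under 0.05 (Sec11c, Hsp90b1 and Edem1), and 7 genes lie below 0.

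BiP, its co-chaperones and GRP94 formed the most numerous group. All 9 measured genes had positive log2 fold changes (median 0.29), 8 were higher at an unadjusted p under 0.05, 7 had separate groups and 1 was called. Over all genes, 49.6% were positive, 8.91% were higher at that level, 11.8% had separate groups upward and 2.51% were called higher. The called gene was Hsp90b1, which encodes GRP94, the HSP90 of the ER lumen. It read 3035, 2984 and 3117 with pMIG and 4231, 3877 and 3789 with Blnk, with Blnk 1 the highest. The mean went from 3045 ± 67.1 to 3966 ± 234 (SD, n = 3), a rise of 30.1% (log2 0.38, SE 0.0715; limma adjusted p = 0.0308). With any 1 array left out, adjusted p was 0.0748 (without Blnk 3) to 0.117 (without pMIG 2), and it was 0.0534 with arrays centred on their medians.

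Hspa5, which encodes BiP, had intensities of 2034, 2019 and 2087 with pMIG and of 2612, 2534 and 2350 with Blnk. No Blnk array overlapped the pMIG range, and the difference (log2 0.29, SE 0.0700) did not pass (limma adjusted p = 0.0789). Its partners showed differences of like size. Sdf2l1, which keeps clients of BiP soluble, stood at 0.36 and Creld2, a stress-induced protein of the lumen, at 0.30. Manf, a secreted stress protein that binds BiP, stood at 0.24 and Hyou1, a nucleotide exchange factor for BiP, at 0.23. None of these 4 passed, though all had separate groups.

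The J-domain partners, which stimulate the ATPase of BiP, were more scattered. Dnajb9 had the largest estimate of the chaperone group: it read 194, 266 and 240 with pMIG and 303, 296 and 309 with Blnk. The groups were separate, but pMIG 1 was far below the other pMIG arrays and the error was wide (log2 0.39, SE 0.115; limma adjusted p = 0.144). Dnajb11 (0.24) and Dnajc3 (0.10) had overlapping groups.

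Among the lectin chaperones and disulfide isomerases, 0 of 5 were called and the median was 0.28. Separate groups, higher with Blnk, were seen for 4 (80%, against 11.8% of all genes). Calr, which encodes the soluble lectin calreticulin, read 2717, 2793 and 2646 with pMIG and 3596, 3391 and 3115 with Blnk. The groups did not overlap (log2 0.31, SE 0.0766; limma adjusted p = 0.0850). Canx, which encodes calnexin, the membrane-bound lectin with the same sugar specificity, read 2102, 2086 and 1953 with pMIG and 2194, 1861 and 1817 with Blnk. Its arrays overlapped, and the 95% interval of its log2 difference ran from -0.28 to 0.14, whose upper end is below the estimate for Calr. That difference between the lectins was not tested.

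The disulfide isomerases, which form and rearrange disulfide bonds, gave log2 differences of 0.28 (Pdia4), 0.28 (Pdia6) and 0.20 (Pdia3), each with separate groups. Pdia4 was the nearest to the threshold (limma adjusted p = 0.0638). Its arrays read 1522, 1560 and 1591 with pMIG against 1936, 1849 and 1882 with Blnk. A second, much dimmer Pdia4 probe gave 0.52.

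**Figure D3:**
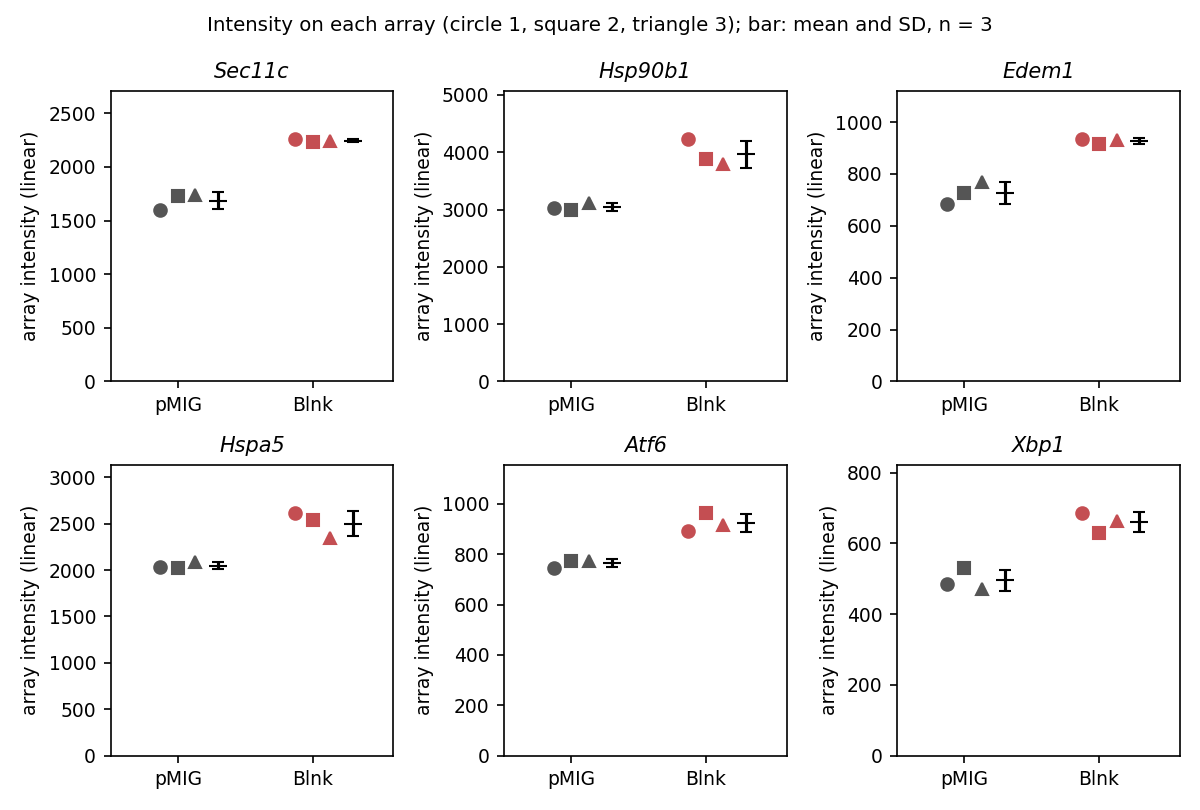
Array intensity on a linear scale from 0 (vertical axis) on each pMIG and Blnk array (horizontal axis) for Sec11c, Hsp90b1, Edem1, Hspa5, Atf6 and Xbp1, with circles, squares and triangles for replicates 1, 2 and 3 and bars for the mean and SD (n = 3). In all 6 genes every Blnk array lies above every pMIG array, and Hspa5 and Atf6 did not pass the adjusted threshold.

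ER stress response elements gave a way to look at the chaperone genes that does not use their intensities. Transcription factors of the unfolded protein response, ATF6 together with NF-Y, bind the element ERSE, here searched as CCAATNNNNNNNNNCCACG on both strands with no mismatch allowed. Windows of 300 bases (250 before and 50 after the RefSeq start, GRCm38.p6, which is the C57BL/6J sequence and not that of Balb/c) were matched for 31 of the 41 genes. ERSE was present in 8 of these 31 genes (25.8%), against 37 of all 27025 genes with a window (0.137%). The members were picked by name from machinery that this response is known to raise. A higher share among them is therefore not independent evidence, and it was not tested. The 9 copies that follow, each with 10 flanking bases and read in the direction in which CCAAT comes first, are shown because a far smaller share of all genes holds this element. Capitals mark the fixed letters of the element.

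Hspa5, chr2:34772015-34772053, plus strand: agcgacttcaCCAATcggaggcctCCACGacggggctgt
Hsp90b1, chr10:86705628-86705666, minus strand: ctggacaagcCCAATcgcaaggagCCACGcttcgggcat
Hsp90b1, chr10:86705523-86705561, plus strand: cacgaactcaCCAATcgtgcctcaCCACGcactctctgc
Calr, chr8:84847065-84847103, plus strand: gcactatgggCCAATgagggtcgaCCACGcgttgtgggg
Creld2, chr15:88819510-88819548, minus strand: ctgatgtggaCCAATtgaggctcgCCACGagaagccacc
Pdia6, chr12:17266481-17266519, plus strand: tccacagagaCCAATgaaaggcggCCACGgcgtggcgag
Dnajc3, chr14:118937817-118937855, plus strand: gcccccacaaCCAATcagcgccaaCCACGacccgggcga
Canx, chr11:50325790-50325828, minus strand: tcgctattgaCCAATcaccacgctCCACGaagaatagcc
Syvn1, chr19:6046522-6046560, plus strand: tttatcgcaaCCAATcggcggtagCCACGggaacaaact

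Hsp90b1 is the only one of the 8 genes with 2 copies in the window, in opposite directions. It is also the only one of the 8 that was called, and a link between copies and fold change was not tested. Its whole stretch of 250 bases before the start (chr10:86705445-86705694, minus strand) shows the copies as capitals, the second reading in reverse:

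Hsp90b1: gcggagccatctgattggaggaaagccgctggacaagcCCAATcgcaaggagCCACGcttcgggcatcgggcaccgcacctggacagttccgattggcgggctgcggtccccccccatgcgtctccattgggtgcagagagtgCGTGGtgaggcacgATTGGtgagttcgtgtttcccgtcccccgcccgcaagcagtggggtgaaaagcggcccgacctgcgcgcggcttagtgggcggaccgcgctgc

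The 8 genes with an ERSE had log2 fold changes from -0.07 (Canx) to 0.38 (Hsp90b1), with a median of 0.28 and 5 higher at an unadjusted p under 0.05. The 22 measured members whose window lacks it had a median of 0.19, with 10 higher at that level, against 8.91% of all genes. The ranges overlap, and the element stood in front of genes that differed little between the groups (Canx, Syvn1, Dnajc3) as well as of genes that differed more. A second form, ERSE-II (ATTGGNCCACG), was found in Herpud1 and Dnajb11, 2 of 31 genes (6.45%) against 0.0444% of all genes. The Herpud1 copy lies 42 to 52 bases before the start:

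Herpud1, chr8:94386367-94386397, plus strand: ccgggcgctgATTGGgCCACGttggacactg

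The shorter core ACGTGG, which ERSE-II overlaps where CCACG is followed by T, was found in 11 of 31 members (35.5%) and in 9.39% of all genes with a window. The longer form TGACGTGG, which contains that core, was found in Sec24d and Kdelr3 (6.45%, against 0.714% of all genes). Members with the core had a median log2 fold change of 0.10 and those without it 0.24. A match describes the letters of these windows and not a bound site.

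**Figure D4:**
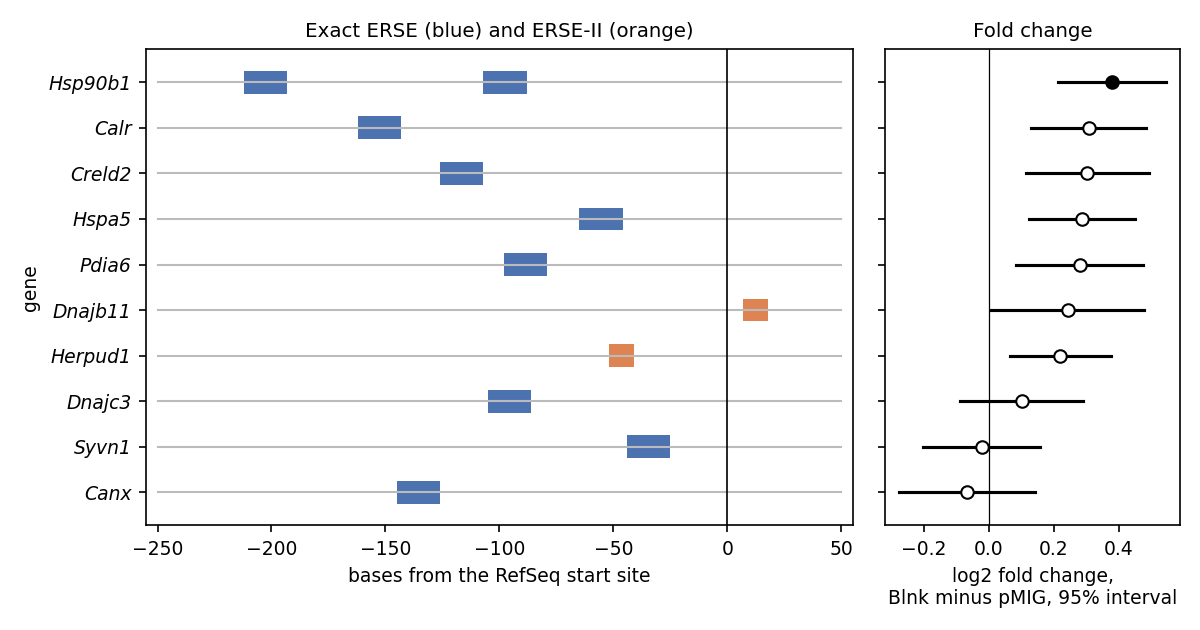
Left, positions of exact ERSE (blue) and ERSE-II (orange) matches in bases from the RefSeq start site (horizontal axis), for the 10 members that hold one (vertical axis), in order of fold change. Right, log2 fold change of the same genes, Blnk minus pMIG, with 95% intervals, filled where called: Hsp90b1, with 2 copies, is at the top at 0.38 and Canx at the bottom at -0.07.

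Genes of ER-associated degradation (ERAD), which returns misfolded proteins to the cytosol, had a median of 0.22. Of 7 measured, 1 was called, 4 were higher at an unadjusted p under 0.05 and 5 had separate groups. These upward shares were 14.3%, 57.1% and 71.4%, against 2.51%, 8.91% and 11.8% of all genes. Edem1, a lectin that recognises trimmed sugars on misfolded glycoproteins, read 684, 726 and 768 with pMIG and 935, 916 and 932 with Blnk. The Blnk arrays were close together and all above the pMIG arrays. The mean went from 726 ± 42.0 to 928 ± 10.2 (SD, n = 3), a rise of 27.9% (log2 0.36, SE 0.0705; limma adjusted p = 0.0368). With any 1 array left out, adjusted p was 0.0802 (without pMIG 3) to 0.129 (without Blnk 3), and it was 0.0759 with arrays centred on their medians.

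Estimates differed within the retrotranslocation complex, and differences between its genes were not tested. Sel1l, the scaffold of the ubiquitin ligase, read 627, 666 and 649 with pMIG and 858, 766 and 782 with Blnk, with separate groups (log2 0.31; limma adjusted p = 0.0714). Its partner Syvn1, which encodes the ligase HRD1 itself, read 1368, 1343 and 1333 with pMIG and 1231, 1441 and 1316 with Blnk. The Syvn1 arrays overlapped, with a log2 difference of -0.02 (95% interval -0.20 to 0.16; 0.03 without Blnk 1).

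The estimates for channel proteins of the same pathway also differed in size, which was not tested either. Derl2 stood at 0.33 with separate groups (limma adjusted p = 0.0667), and Derl1 at 0.13 with overlapping ones. Herpud1, a membrane protein that recruits the ligase, read 2373, 2415 and 2377 with pMIG and 2743, 2687 and 2919 with Blnk. The groups did not overlap, and the difference (log2 0.22, SE 0.0665) did not pass (limma adjusted p = 0.152). Edem2, a relative of Edem1 that starts mannose trimming, stood at 0.17.

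The carriers among the members had estimates on both sides of 0, and their difference from the chaperone genes was not tested. In the wider pathway list, 11 of 13 other COPII genes and 21 of 24 COPI coat and recycling genes were above 0. Separate groups, higher with Blnk, were seen for 4 and 9 of them (30.8% and 37.5%, against 11.8% of all genes). Of 3 COPII coat genes among the members, 0 were called, 1 had separate groups and the median was -0.08 (0.01 without Blnk 3). Sec23b, of the inner coat, read 1155, 1170 and 1145 with pMIG and 1452, 1201 and 1294 with Blnk, with a log2 difference of 0.18. Sec31a, of the outer coat, overlapped between groups (-0.08; 0.01 without Blnk 3). Sec24d, the cargo-binding subunit, was dim, near the array medians, at 69, 74 and 77 with pMIG and 70, 61 and 58 with Blnk. It was the lowest member (log2 -0.22, SE 0.0908; limma adjusted p = 0.301).

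Of the 3 measured cargo and retrieval receptors, 0 were called. Lman1, a lectin that carries glycoproteins to the Golgi, read 968, 1020 and 1047 with pMIG and 1068, 906 and 952 with Blnk, and its partner Mcfd2 stood at 0.08. Both genes overlapped between the groups. Kdelr3, which retrieves escaped chaperones, had separate groups but was dim, at 26, 23 and 28 with pMIG and 29, 29 and 33 with Blnk, where rounding to whole numbers is coarse (log2 0.24; limma adjusted p = 0.285).

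The 3 Blnk arrays were not alike. Blnk 1 was the highest of the 3 Blnk arrays for 27 of 39 members (69.2%), against 33.6% of all genes and 40.98% of genes without the dim ones. This was not particular to the members: in the wider pathway list Blnk 1 was the highest for 70 of 111 genes (63.1%). For BiP, GRP94 and their partners it was the highest for 8 of 9, and for the lectins and isomerases for 5 of 5. The median over members of log2 intensity minus the pMIG mean was 0.26 on Blnk 1, 0.16 on Blnk 2 and 0.20 on Blnk 3, and lay between -0.01 and 0.02 on the pMIG arrays. Over all genes the same median stayed between -0.02 and 0.02 on every array. Without Blnk 1 the members' median log2 fold change was 0.17, with 33 of 39 above 0.

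**Figure D5:**
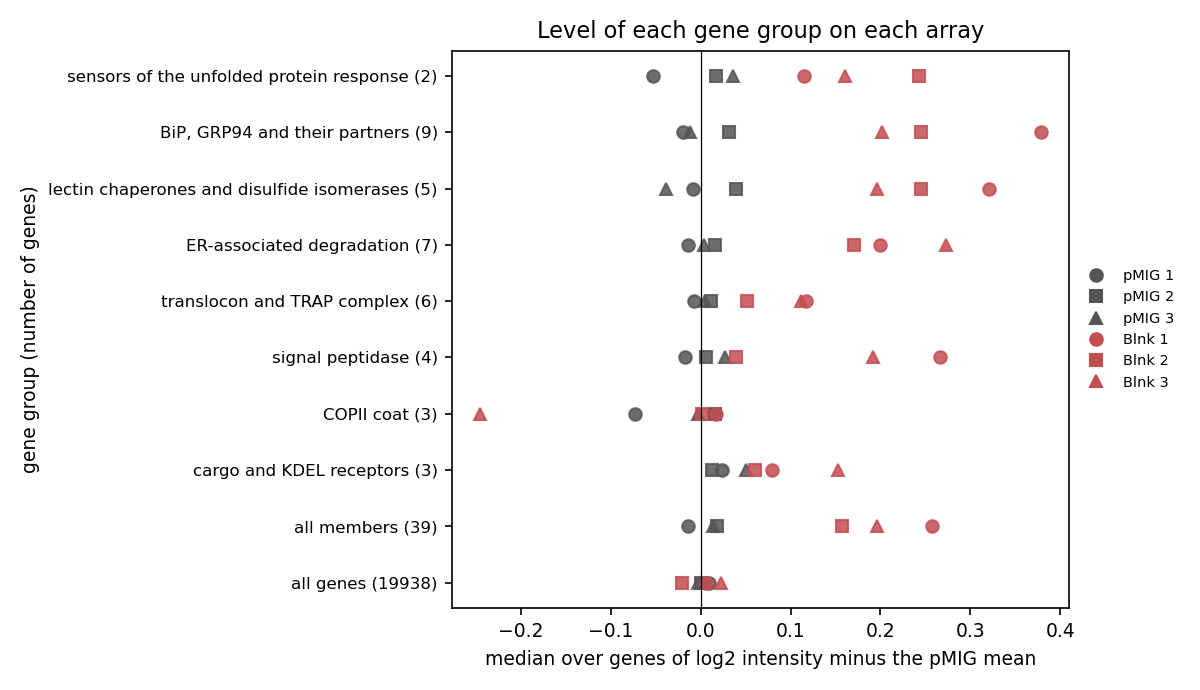
Median over the genes of each group (vertical axis, with the number of genes) of log2 intensity minus the mean of the pMIG arrays (horizontal axis), for each of the 6 arrays. Blnk arrays (red) lie above pMIG arrays (grey) for each member group except the COPII coat, where they overlap, and the medians of all 19938 genes lie within -0.02 to 0.02.

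Of 114 other genes of the pathway listed beside the members, 111 were measured, 7 rose and 3 fell, which is 6.31% higher against the 2.51% of all genes and 2.70% lower against the 1.10% of all genes, with a median of 0.08. These lists were written with results of the same arrays known and are not independent evidence. The largest change was in thioredoxin-like proteins of the ER. Txndc11 read 360, 363 and 359 with pMIG and 678, 673 and 647 with Blnk. It rose by 84.6% (log2 0.88, SE 0.0629; limma adjusted p = 0.000284). Txndc5, an isomerase of the PDI family, rose from 928 ± 19.2 to 1368 ± 57.6 (SD, n = 3; log2 0.56). These 2 passed with each of the 6 arrays left out in turn, when 2 or 3 of the 111 genes rose and 0 to 2 fell.

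Other folding genes went their own way. P4hb, which encodes the founding disulfide isomerase PDI, stood at 0.04 (95% interval -0.12 to 0.20). Clgn, which encodes calmegin, a relative of calnexin best known from the testis, fell from 387, 406 and 408 to 287, 225 and 232 (log2 -0.70, SE 0.102; limma adjusted p = 0.00982), but not without pMIG 2, pMIG 3, Blnk 2 or Blnk 3 (adjusted p = 0.0523 to 0.0721). In transport, Trappc1, a subunit of the TRAPP tether, rose by 0.46 on the log2 scale. Sec13, a COPII cage subunit named after its value was seen, rose by 0.31. Trappc1 passed with 1 array left out only without Blnk 2 (adjusted p = 0.0356), and Sec13 in no such fit (0.0908 to 0.165). Of 10 measured subunits of the oligosaccharyl transferase, which attaches sugars, 0 were called, with a median of 0.08.

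Of 15 other unfolded protein response genes measured, 3 rose and 2 fell, with a median of 0.02. That is 20% and 13.3%, against 2.51% of all genes called higher and 1.10% called lower. Xbp1, the transcription factor downstream of IRE1, read 484, 530 and 471 with pMIG and 685, 629 and 664 with Blnk. It rose by 33.3% (log2 0.41, SE 0.0759; limma adjusted p = 0.0273). With 1 array left out it passed only without pMIG 2 (adjusted p = 0.0474) and otherwise had an adjusted p of 0.0744 to 0.130. The array does not separate spliced from unspliced Xbp1. Wfs1, an ER membrane protein, rose by 0.38 and Creb3, a transcription factor cleaved like ATF6, by 0.30, and neither passed with any 1 array left out (adjusted p of 0.0603 to 0.111 for Wfs1 and 0.0888 to 0.143 for Creb3).

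Eif2ak3, which encodes the sensor PERK, stood at 0.17 (limma adjusted p = 0.281). Atf4, its translationally controlled effector, read 1118, 1136 and 1181 with pMIG and 1132, 1189 and 1137 with Blnk, with overlapping arrays and a 95% interval of -0.14 to 0.16 on the log2 scale. Trib3, a pseudokinase induced by ATF4, fell from 309, 316 and 305 to 235, 225 and 236 (log2 -0.42, SE 0.0639; limma adjusted p = 0.0120), but not without pMIG 2, pMIG 3, Blnk 2 or Blnk 3 (adjusted p = 0.0512 to 0.0634). Chac1, a glutathione-degrading enzyme also induced by ATF4 and named after its value was seen, fell by 0.38 on the log2 scale (limma adjusted p = 0.0415; 0.0612 to 0.169 with 1 array left out). Ddit3, which encodes CHOP, stood at 0.13 and was not called.

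Markers of plasma cells moved alongside. Of 9, 5 rose (Jchain, Ell2, Irf4, Mzb1 and Xbp1, the last shared with the wider pathway list), against 2.51% of all genes called higher. Jchain changed most, from 38.3 ± 8.02 to 435 ± 103 (SD, n = 3; log2 3.50; limma adjusted p = 0.000125). The summed intensity of the 9 was 10173 to 10481 with pMIG and 12757 to 13311 with Blnk. Pou2af1, the brightest of them, was not called. The defining plasma cell genes Sdc1 (103 ± 9.17 and 98.3 ± 16.2, SD, n = 3) and Prdm1 (28.3 ± 1.53 and 26.7 ± 2.52) were not higher with Blnk, and Prdm1 was below the array medians. The part of these markers in the members' values was not tested. Of 8 stromal and endothelial markers 1 rose (Pecam1, which B cells also express), and their sum was 902 to 979 with pMIG and 1149 to 1261 with Blnk. Of the T and NK cell markers (7 measured, summed 454 to 537 and 486 to 576) and the erythroid and megakaryocyte markers (5 measured, summed 162 to 187 and 169 to 194), 0 were called by limma.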

How the data were processed

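The authors deposited 1 intensity per probe and array, as whole numbers from 3 to 22187. Per the submitters' processing notes the method was RMA (software version: not given in the sources used here). The test had been planned for log2 expression, so log2 was taken of the linear values with nothing added. Of 35421 probes, 21789 had 1 gene symbol, 1621 several and 12011 were not listed; of the single-gene probes 21698 matched Entrez identifiers of GRCm38.p6. The brightest single-gene probe over the arrays represented each gene (19938 genes).

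The fit used limma 3.58.1 in R 4.3.3 (lmFit, then eBayes), group as the only term, no filter, Benjamini-Hochberg over all genes, threshold 0.05, two-sided; the script was tested on simulated data. Errors are limma SEs or SDs of intensities. The number of arrays limits precision. Members, lists and naming rule were chosen with earlier results of these data known. The rule gave array values for called members, both sensors and the brightest and most changed member of each sub-function, Xbp1, Eif2ak3, Atf4, and the 8 wider genes with the smallest adjusted p; further array values were chosen after they were seen. In the wider list 6 genes matched through synonyms. Promoter sequences are RefSeq's (GRCm38.p6). Retention signals in the proteins, planned at the start, were not analysed here.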

Additional observations from a re-analysis of the deposited data

How the results depend on the processing

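Leaving out 1 array at a time gave 195 to 304 genes called higher (500 with all arrays) and 72 to 133 lower (220), 0 members higher (3), 2 to 3 genes of the wider list higher (7) and 0 to 2 lower (3), and 0 to 1 members lower at an unadjusted p under 0.05 (1). With dim genes left out, calls were 807 higher and 421 lower over all genes and 12 members and 12 wider genes higher, and with a trended, robust prior 1021, 518, 16 and 19. Centring the arrays on their medians left 1 member called (Sec11c), and quantile normalization repeated on the deposited values gave 4 members and a members' median of 0.14 in place of 0.20. Sec24d, the member lower at an unadjusted p, missed that level (0 members) under centring, quantile normalization, the trended prior and the replicate block. Array weights and the mean of probes changed no count by over 1.5 times. The members' median was 0.17 to 0.24 with 1 array left out, and 30 to 33 members were above 0 in every setting run with all members.

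Replicate numbers did not pair the samples: deviations of same-numbered arrays correlated at -0.19, 0.06 and -0.12. With the replicate block, 208 genes were called higher and 81 lower, with 0 members, 2 wider genes higher and 0 lower; 19 members were higher at an unadjusted p under 0.05.

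Signs changed for genes near 0. Under quantile normalization Sec61a1 was -0.0045, Spcs2 -0.042 and Atf4 -0.046. Ssr1 was 0.00089 under centring and 0.011 with array weights, where Atf4 was -0.0035. With 1 array left out the ranges were -0.083 to 0.031 for Syvn1, -0.050 to 0.028 for Ssr1, -0.12 to 0.0092 for Sec31a and for the COPII median, and -0.013 to 0.032 for Atf4. Apart from the fits with fewer arrays or fewer genes, the cause of these changes was not tested. With 3 arrays a group, precision limits the calls, and values of dim genes such as Kdelr3 carry rounding error.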

Other observations

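The exact ERSE also lies in front of genes outside the 41 members. Of these, 13 were measured, including Derl3 (log2 fold change 0.30), a degradation factor, and Ero1b (0.00), an oxidase of the ER, both from the wider pathway list and named after their values were seen. The other 11 had a median of -0.03 and a range from -0.31 to 0.19. By limma's adjusted p 0 of the 11 were called in either direction, and an unadjusted p under 0.05 was reached by 1 upward and 3 downward. The 8 members with the element had a median of 0.28. The difference between these sets was not tested.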
